A study of Homo sapiens with 4 samples.

Results

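Calcium pumps and other cation transporters were followed by 8 genes in the deposited table of 20348 genes: the endoplasmic reticulum pump genes ATP2A2 and ATP2A3, the plasma membrane pump genes ATP2B1 and ATP2B4, the sodium-calcium exchanger genes SLC8A1 and SLC8B1, and the cation-chloride cotransporter genes SLC12A2 and SLC12A7. They were taken by Ensembl identifier, and all 8 had a row in the table. K562, an established line from a chronic myeloid leukemia, and THP-1, an established line from an acute monocytic leukemia, received either DMSO, the solvent, or 100 nM periplocin for 72 h. Periplocin is a cardiac glycoside from Cortex periplocae. The sample titles call the DMSO controls blank. Poly-A RNA of each of the 4 conditions was sequenced as 1 library, so the spread between replicates is unknown and the differences below lack a replicate check.

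A calcium gradient across cell membranes is kept up by pumps that spend ATP and by exchangers that use the sodium gradient. SERCA pumps, the products of the ATP2A genes, move calcium from the cytosol into the endoplasmic reticulum, and PMCA pumps, the products of the ATP2B genes, move it out of the cell. NCX1, the product of SLC8A1, trades intracellular calcium for extracellular sodium, and cardiac glycosides are known to act on the sodium pump that maintains the sodium gradient. Cation-chloride cotransporters carry chloride together with sodium and potassium and are known for their part in cell volume.

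Library totals lay between 16381149 and 20622694 counts, and mitochondrially encoded genes took 5.62% of K562 counts with DMSO and 2.07% with periplocin, and 5.24% and 3.92% of THP-1 counts. Levels are given as CPM on TMM-scaled library sizes, and each log2 fold change compares the periplocin library with the DMSO library of the same line, with an exact 95% interval that covers counting error only. Genes are said to have risen or fallen only when the change was at least 2-fold, which is a threshold of size and not a test. Of 12736 K562 genes with at least 10 counts in either library, 23.5% passed it, 10.5% higher and 13.0% lower in periplocin. Of 13367 THP-1 genes, 22.1% passed it, 9.61% higher and 12.5% lower. The labels of the lines were checked against markers. HBG1, HBG2, HBZ, GATA1 and KLF1 ranged from 83.7 to 3338 CPM in K562 and did not exceed 1.22 CPM in THP-1. SPI1, LYZ, CSF1R, CD33, ITGAM and FCER1G ranged from 28.9 to 259 CPM in THP-1. In K562 CSF1R had 3 counts in each library, whereas LYZ was at 44.1 and 61.1 CPM in DMSO and periplocin.

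In K562, ATP2A3 and ATP2B4 fell and SLC12A7 rose with periplocin, so 3 of the 7 transporter genes with enough counts passed 2-fold against 23.5% of all genes. In THP-1 SLC8A1 rose and the other 7 transporter genes did not pass 2-fold, which makes 1 of 8 against 22.1% of all genes. The median log2 fold change of the transporters was 0.20 in K562 and 0.23 in THP-1, beside -0.01 and -0.04 over all genes tested. SLC8A1 had too few counts in K562 to be compared there.

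Other markers moved in the same libraries. In K562, 17 of 18 erythroid marker genes rose, beside 10.5% of all genes, and their summed level went from 3123 to 15340 CPM, with none of the 18 at 0 in both libraries. In THP-1, where 9 of the 18 had enough counts, 2 rose and 5 fell, beside 9.61% higher and 12.5% lower over all genes, and their median was -1.14 on the log2 scale. Their sum there was 21.9 and 28.96 CPM, of which AQP1 made up 0.557 and 14.8 CPM, and HBG2 had 24 counts in DMSO and 0 in periplocin. HBA2 (10 to 0 counts), TAL1 (10 to 2) and SLC4A1 (15 to 4) also fell there at few counts, whereas ANK1 fell from 157 to 61. A library at 3 counts or fewer was set to 3, so the falls at few counts and the median are weakly fixed. Of 18 monocyte marker genes in THP-1, 8 rose and 2 fell, beside the same 9.61% and 12.5%, and their summed level went from 3984 to 4478 CPM. Of 13 monocyte marker genes with enough counts in K562, 4 rose and 6 fell, beside 10.5% and 13.0% of all genes. They include CD36 (35 to 218 counts) and C3AR1 (42 to 5). Some of these calls have a library at 3 counts or fewer, which was set to 3. Such rises were CD14 (1 to 69) and TYROBP (3 to 10), and such falls FCGR1A (11 to 2) and FCER1G (11 to 1). The summed level of the monocyte markers in K562 was 314 CPM with DMSO and 270 CPM with periplocin. Globin genes have near-identical copies between which reads could be divided. The part of these changes, and of the mitochondrial share, in the results for ATP2A3, ATP2B4, SLC12A7 and SLC8A1 was not tested. In bulk RNA a change in the share of cells of a kind cannot be told apart from a change in RNA per cell.

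**Figure D1:**
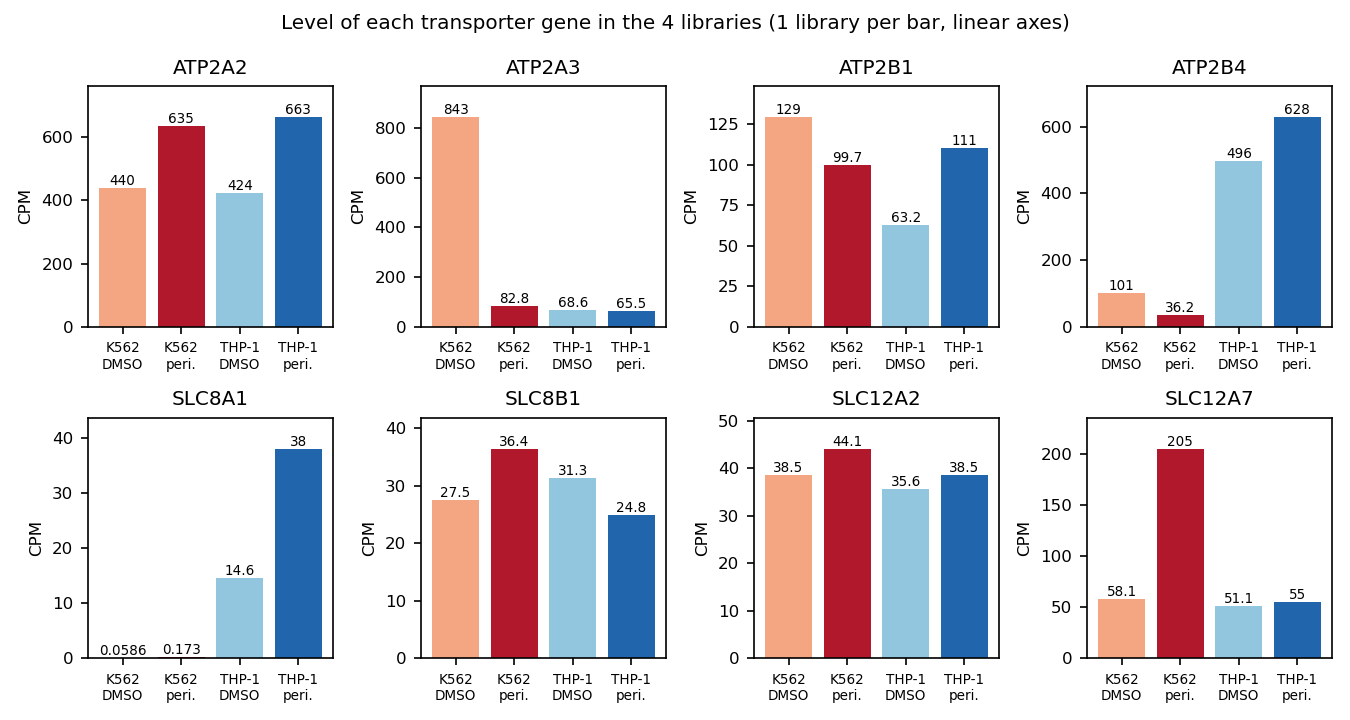
Level of each of the 8 transporter genes in CPM on linear axes that start at 0 and differ between panels, with 1 bar per library and no error bar because each condition has 1 library. ATP2A3 stood at 843 CPM in K562 DMSO and between 65.5 and 82.8 CPM in the other 3 libraries, and SLC12A7 stood at 205 CPM in K562 periplocin and between 51.1 and 58.1 CPM elsewhere.

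ATP2A3 encodes SERCA3, a SERCA pump known from blood cells and platelets. The gene (ENSG00000074370) lies on the minus strand of GRCh38 at chr17:3923870-3964464 and has 15 annotated transcripts, of which the longest coding one encodes 1052 amino acids. K562 held 14390 counts (843 CPM) with DMSO and 1440 (82.8 CPM) with periplocin, and THP-1 held 1356 (68.6 CPM) and 1108 (65.5 CPM). The untreated K562 library was therefore the high one, and the treated K562 library sat close to both THP-1 libraries. The K562 log2 fold change was -3.35 (interval -3.43 to -3.27), a 10.2-fold fall. Of the 12736 genes tested in K562, 62 had a change as low as this or lower, counting ATP2A3 itself. In THP-1 the log2 fold change was -0.07 (interval -0.18 to 0.05), an interval that includes no change. The difference between the responses, THP-1 minus K562, was 3.28 on the log2 scale (counting interval 3.14 to 3.42). In DMSO, ATP2A3 was 12.3-fold higher in K562 than in THP-1.

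ATP2A2 encodes SERCA2, the widely expressed SERCA pump of the endoplasmic reticulum. The gene (ENSG00000174437) lies on the plus strand at chr12:110280756-110351093 and has 12 annotated transcripts, and it shares no exon with another annotated gene. K562 held 7514 counts (440 CPM) with DMSO and 11029 (635 CPM) with periplocin, and THP-1 held 8369 (424 CPM) and 11219 (663 CPM). Both treated libraries were above both untreated ones. The log2 fold change was 0.53 (interval 0.49 to 0.57) in K562 and 0.65 (interval 0.61 to 0.69) in THP-1, neither past 2-fold. The untreated lines were close, with K562 1.04-fold higher than THP-1.

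Set together, the SERCA genes changed their make-up in K562. ATP2A3 made up 65.5% of the counts on ATP2A1, ATP2A2 and ATP2A3 in K562 DMSO (exact binomial 95% interval 64.9% to 66.1%) and 11.3% in K562 periplocin (interval 10.8% to 11.9%). ATP2A2 went from 34.2% to 86.9% of the same counts. In THP-1 the ATP2A3 share was 13.9% in DMSO and 8.92% in periplocin, with intervals of 13.2% to 14.6% and 8.43% to 9.44%. These shares are of counts and depend on gene length, and with counts divided by exon length the ATP2A3 share was 78.8% with DMSO and 19.7% with periplocin in K562, and 24.3% and 16.1% in THP-1. The summed SERCA level went from 1288 to 730 CPM in K562 (log2 fold change -0.82, interval -0.85 to -0.79) and from 494 to 734 CPM in THP-1 (0.57, interval 0.54 to 0.61). The treated libraries of the lines thus had nearly the same summed level, with ATP2A2 as the leading gene in each. ATP2A1, which encodes the SERCA1 pump known from fast skeletal muscle, was the smallest part of this sum. It passed 2-fold upward in K562 (69 to 217 counts, log2 fold change 1.63, interval 1.23 to 2.04) and in THP-1 (24 to 93 counts, 2.18, interval 1.52 to 2.89). Exons of ATP2A1 share 246 bp with an antisense gene and 89 bp with RABEP2 on the opposite strand, and the library kit does not mark strand. The Golgi calcium pump gene ATP2C1 had 1292 and 1392 counts in the K562 DMSO and periplocin libraries and 1578 and 1116 in those of THP-1, without passing 2-fold.

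ATP2B4 encodes PMCA4, a plasma membrane calcium pump known as the main one of the human red cell. The gene (ENSG00000058668) lies on the plus strand at chr1:203626561-203744081 and has 7 annotated transcripts. K562 held 1726 counts (101 CPM) with DMSO and 629 (36.2 CPM) with periplocin, and THP-1 held 9807 (496 CPM) and 10625 (628 CPM). Both THP-1 libraries were above both K562 libraries. In K562 it fell 2.80-fold with periplocin (log2 fold change -1.48, interval -1.62 to -1.35), and 6.93% of tested genes had a change this low or lower. In THP-1 the log2 fold change was 0.34 (interval 0.30 to 0.38), so the direction was opposite although the size was below 2-fold. ATP2B4 was 4.91-fold higher in THP-1 DMSO than in K562 DMSO.

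ATP2B1 encodes PMCA1, the most widely expressed plasma membrane calcium pump. The gene (ENSG00000070961) lies on the minus strand at chr12:89588049-89709300, and 82 bp of its exons are shared with the antisense gene ATP2B1-AS1. K562 held 2206 counts (129 CPM) with DMSO and 1732 (99.7 CPM) with periplocin, and THP-1 held 1248 (63.2 CPM) and 1872 (111 CPM). Untreated THP-1 was the lowest of the 4 libraries. The log2 fold change was -0.37 (interval -0.47 to -0.28) in K562 and 0.81 (interval 0.70 to 0.91) in THP-1, again in opposite directions and below 2-fold. ATP2B1 was 2.05-fold higher in K562 DMSO than in THP-1 DMSO, the reverse of ATP2B4. As a result ATP2B4 made up 43.9% of the counts on ATP2B1 to ATP2B4 in K562 DMSO (interval 42.3% to 45.5%) and 26.6% in K562 periplocin (interval 24.9% to 28.5%). The ATP2B4 share in THP-1 was 88.2% in DMSO and 84.6% in periplocin. The summed PMCA level went from 230 to 136 CPM in K562 (log2 fold change -0.76, interval -0.84 to -0.69) and from 563 to 742 CPM in THP-1 (0.40, interval 0.36 to 0.44). ATP2B2 and ATP2B3, whose products are PMCA pumps best known from the nervous system, had at most 1 count in K562, and in THP-1 ATP2B3 had 53 and 55 counts and ATP2B2 5 and 4.

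**Figure D2:**
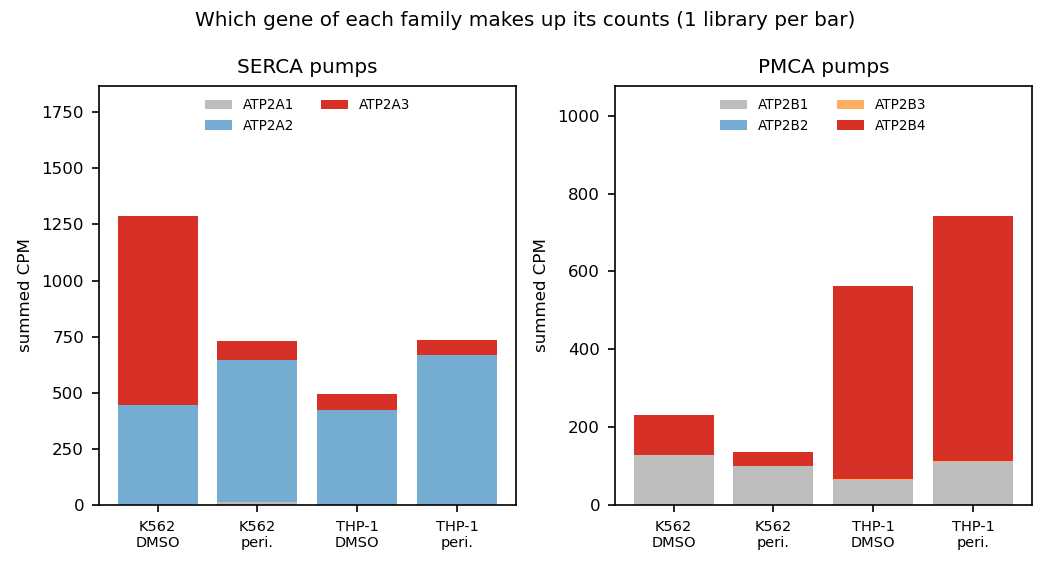
Summed level in CPM of the SERCA genes and the PMCA genes in each library, with 1 stacked bar per library divided by gene. The ATP2A3 segment held 65.5% of the SERCA counts in K562 DMSO and 11.3% in K562 periplocin, and the ATP2B4 segment went from 43.9% to 26.6% of the PMCA counts in K562.

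SLC8A1 encodes NCX1, the sodium-calcium exchanger of the plasma membrane that is best known from heart muscle. The gene (ENSG00000183023) lies on the minus strand at chr2:40097270-40611053, and 2040 of the 21922 bp of its exons are shared with the antisense gene SLC8A1-AS1, whose reads could not be told apart by strand. K562 held 1 count with DMSO and 3 with periplocin, and THP-1 held 288 and 642. In K562 both libraries were at or under the floor of 3 counts, so no fold is given, and 3 counts correspond to 0.173 CPM in the periplocin library. THP-1 DMSO was at 14.6 CPM and THP-1 periplocin at 37.9 CPM. The THP-1 rise was 2.60-fold (log2 fold change 1.38, interval 1.18 to 1.59), and 6.14% of tested genes had a change this high or higher. Between the untreated lines the counts of 288 and 1 give a ratio of 249, with a counting interval of 44.3 to 9860, so the size of this difference is poorly fixed. SLC8A2 had between 3 and 9 counts in every library, and SLC8A3 had 0 in all 4.

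SLC8B1 encodes NCLX, the mitochondrial sodium-calcium exchanger. The gene (ENSG00000089060) lies on the minus strand at chr12:113298759-113359493. K562 held 470 counts (27.5 CPM) with DMSO and 632 (36.4 CPM) with periplocin, and THP-1 held 619 (31.3 CPM) and 420 (24.8 CPM). The range over the 4 libraries was thus narrow. The log2 fold change was 0.40 (interval 0.23 to 0.58) in K562 and -0.34 (interval -0.52 to -0.16) in THP-1, in opposite directions and below 2-fold in each. Of the potassium-dependent sodium-calcium exchangers, SLC24A1 fell in K562 from 228 to 35 counts (log2 fold change -2.73, interval -3.29 to -2.21) and went from 314 to 156 counts in THP-1 (-0.79, interval -1.07 to -0.50). Exons of SLC24A1 share 363 bp with DENND4A on the opposite strand.

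SLC12A7 encodes KCC4, a cotransporter that carries potassium and chloride out of the cell. The gene (ENSG00000113504) lies on the minus strand at chr5:1050376-1112035, with 6 annotated transcripts, and shares no exon with another annotated gene. K562 held 991 counts (58.1 CPM) with DMSO and 3557 (205 CPM) with periplocin, and THP-1 held 1010 (51.1 CPM) and 931 (55.0 CPM). Only the treated K562 library stood above the others. The K562 rise was 3.52-fold (log2 fold change 1.82, interval 1.72 to 1.92), and 3.88% of tested genes had a change this high or higher. In THP-1 the log2 fold change was 0.11 (interval -0.02 to 0.24), which includes no change, and the difference between the responses, THP-1 minus K562, was -1.71 (counting interval -1.88 to -1.55).

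SLC12A2 encodes NKCC1, which carries sodium, potassium and chloride into the cell. The gene (ENSG00000064651) lies on the plus strand at chr5:128083766-128189688. K562 held 657 counts (38.5 CPM) with DMSO and 766 (44.1 CPM) with periplocin, and THP-1 held 704 (35.6 CPM) and 651 (38.5 CPM). Over the 4 libraries together it varied least of the transporters, although in THP-1 alone ATP2A3 changed less, at -0.07. The log2 fold change of SLC12A2 was 0.20 (interval 0.04 to 0.35) in K562 and 0.11 (interval -0.05 to 0.27) in THP-1. The difference between the responses was -0.08 (counting interval -0.30 to 0.13).

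SLC12A4, which encodes the potassium-chloride cotransporter KCC1, did not pass 2-fold in K562 (756 to 586 counts, log2 fold change -0.39) or in THP-1 (607 to 608 counts, 0.23). Elsewhere in this family, SLC12A9 fell in K562 from 312 to 120 counts (-1.40, interval -1.72 to -1.10) and SLC12A8 rose in THP-1 from 56 to 132 (1.46, interval 1.00 to 1.94).

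The stretches of 250 bases before the RefSeq start of SLC12A7, SLC12A2 and SLC8A1 on GRCh38.p14 are shown because the cotransporter genes responded differently in K562 and SLC8A1 differed most between the lines. They lie at chr5:1112064-1112313 on the minus strand, chr5:128083516-128083765 on the plus strand and chr2:40512436-40512685 on the minus strand, and hold no annotated exon. RefSeq lists 3 starts for SLC8A1, of which the first in the table was used. Capitals mark matches on either strand to the GATA letters AGATAA and TGATAA, the GC box GGGCGG and the E-box CACGTG, and the CCAAT box was searched and not matched.
SLC12A7: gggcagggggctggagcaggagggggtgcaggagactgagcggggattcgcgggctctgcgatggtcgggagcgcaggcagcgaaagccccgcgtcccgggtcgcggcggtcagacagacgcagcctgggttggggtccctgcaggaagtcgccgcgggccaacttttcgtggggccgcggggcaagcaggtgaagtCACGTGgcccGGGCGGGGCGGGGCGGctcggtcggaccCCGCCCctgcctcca
SLC12A2: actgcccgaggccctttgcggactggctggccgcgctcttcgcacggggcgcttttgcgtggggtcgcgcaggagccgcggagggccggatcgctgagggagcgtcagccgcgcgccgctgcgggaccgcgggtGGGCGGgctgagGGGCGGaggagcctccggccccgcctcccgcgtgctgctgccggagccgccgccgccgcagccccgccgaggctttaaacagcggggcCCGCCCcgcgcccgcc
SLC8A1: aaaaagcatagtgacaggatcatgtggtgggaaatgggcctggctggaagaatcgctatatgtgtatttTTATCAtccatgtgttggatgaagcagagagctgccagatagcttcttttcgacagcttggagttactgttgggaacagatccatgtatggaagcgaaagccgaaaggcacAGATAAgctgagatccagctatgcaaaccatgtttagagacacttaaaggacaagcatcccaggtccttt
The SLC12A7 stretch holds 4 matches to GGGCGG, of which 3 follow each other with shared end bases, and 1 to CACGTG, which reads alike on both strands. The SLC12A2 stretch holds 3 matches to GGGCGG and none to the others. The SLC8A1 stretch has no GGGCGG and holds 1 AGATAA and 1 TGATAA, the letters that GATA factors are known to bind. Of 27305 such stretches (the first listed for each gene), 42.3% hold GGGCGG, 6.49% CACGTG, 9.37% AGATAA, 6.89% TGATAA and 33.0% CCAAT. Their GC content is 74.4%, 79.6% and 44.8%, beside a median of 58.0%. A match describes the letters and shows no binding. ATP2A3 had no entry in the table of starts. The stretches of ATP2B1, ATP2B4 and SLC8B1 overlap annotated exons.

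**Figure D3:**
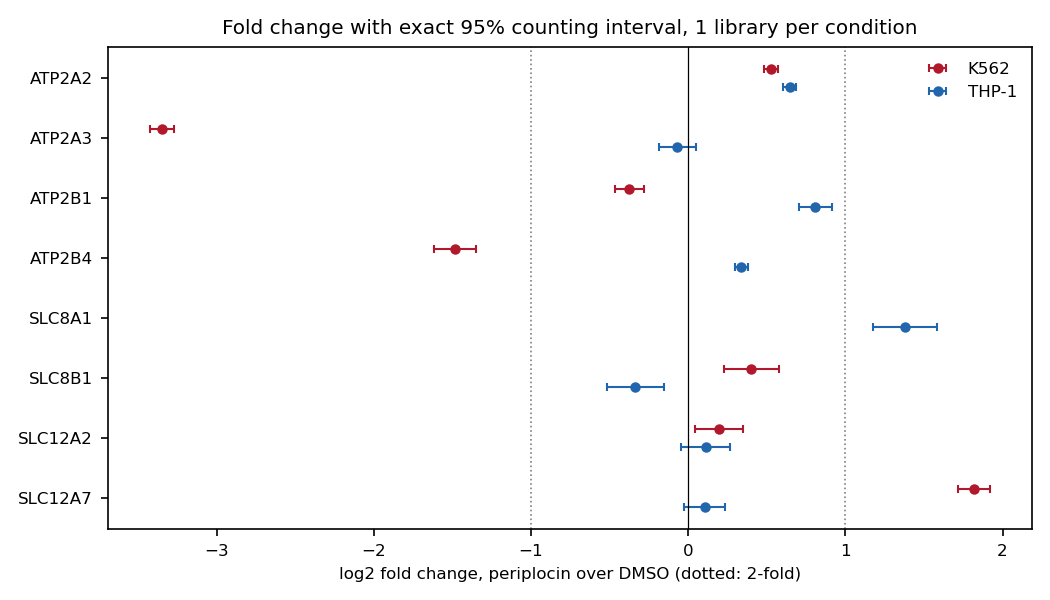
Log2 fold change of each transporter gene, periplocin over DMSO, in K562 and in THP-1, with bars for the exact 95% counting interval and dotted lines at 2-fold. ATP2A3 at -3.35, ATP2B4 at -1.48 and SLC12A7 at 1.82 passed 2-fold in K562 and SLC8A1 at 1.38 passed it in THP-1, and SLC8A1 has no point in K562, where it had 1 and 3 counts.

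Levels of different genes were compared per length, as TPM computed from the counts and the summed length of each gene's exons. In K562 DMSO the order ran from ATP2A3 at 496 TPM and ATP2A2 at 130 TPM through ATP2B1 at 55.2, ATP2B4 at 42.2 and SLC12A7 at 39.3 TPM to SLC8B1 at 16.5, SLC12A2 at 14.6 and SLC8A1 at 0.0108 TPM. In K562 periplocin ATP2A2 led at 206 TPM, followed by SLC12A7 at 152 TPM, and ATP2A3 was the third at 53.5 TPM. In THP-1 ATP2B4 led in both libraries, at 195 TPM in DMSO and 263 TPM in periplocin, ahead of ATP2A2 at 118 and 196 TPM. With the length of the longest coding transcript in place of all exons, ATP2A2 came first in both THP-1 libraries, so the order of this pair depends on the length chosen. Over all libraries this choice changed 12 of 32 ranks.

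A joint model of all 4 libraries held a term for the line and a term for periplocin and was tested with edgeR (quasi-likelihood). In it the error is how far the lines' responses differ, with 1 residual degree of freedom. Of 13584 genes 0 (0.0%) passed an adjusted p of 0.05, while 1535 had an unadjusted p under 0.05 and DESeq2 called 131 (0.964%). The transporters had Benjamini-Hochberg adjusted p-values from 0.412 to 0.972 in edgeR, the lowest for SLC8A1, and from 0.317 to 0.990 in DESeq2, the lowest for ATP2A3. With 1 and 3 counts of SLC8A1 in K562, its value here rests almost wholly on the THP-1 pair. It cannot show whether the lines responded alike. ATP2A2, which was higher with periplocin in both lines, had a log2 fold change of 0.60 in this fit with an adjusted p of 0.48 (edgeR).

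Genes whose pattern over the 4 libraries was nearest to that of a transporter were sought among the 11015 genes that averaged 5 CPM or more, by the largest difference in the K562 change, the THP-1 change and the untreated ratio of the lines. For ATP2A3 they were ZNF311, MAP1B and EIF4E3, with largest differences of 0.41 to 0.65 on the log2 scale. Those of ATP2B4 were ABR, SNN and CPNE8 (0.18 to 0.27), and those of SLC12A7 were SCML2, CARHSP1 and RFK (0.19 to 0.20). No such genes are given for SLC8A1, since its K562 values are at or under the floor. With 4 libraries this likeness is a description.

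Among partners and regulators of the pumps, 2 of 11 genes tested rose and 1 fell in K562, and 1 of 10 rose in THP-1, with medians of 0.19 and 0.50. Over all genes 23.5% of K562 and 22.1% of THP-1 genes passed 2-fold in either direction, and the counts of this list are near or below those shares. BSG, which encodes basigin, a PMCA partner that escorts transporters to the cell surface, rose in K562 (7686 to 22440 counts, log2 fold change 1.52, interval 1.48 to 1.56) and went from 9860 to 13362 in THP-1 (0.66, interval 0.62 to 0.70). NPTN, whose product neuroplastin is also a PMCA partner, went from 401 to 465 counts in K562 (0.19, interval -0.01 to 0.38) and rose in THP-1 from 1440 to 2599 (1.08, interval 0.98 to 1.17). HAX1, whose product is known to bind SERCA2 and its inhibitor phospholamban, fell in K562 from 3219 to 1461 counts (-1.17, interval -1.26 to -1.08). The phospholamban gene PLN had at most 1 count in any library, and SLN, which encodes the SERCA inhibitor sarcolipin, had 0 in all 4. S100A1, a calcium-binding protein gene, rose in K562 from 65 to 142 counts, and 235 bp of its exons are shared with S100A13.

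Of the sodium-proton exchanger genes 3 of 9 fell and 0 rose in K562, beside 13.0% lower and 10.5% higher over all genes. In THP-1 3 of 12 fell and 0 rose, beside 12.5% lower and 9.61% higher. The medians were -0.47 and -0.52, beside -0.01 and -0.04 over all genes tested. SLC9B2, which encodes the exchanger NHA2, was lower by over 2-fold in K562 (344 to 112 counts, log2 fold change -1.65, interval -1.97 to -1.33) and in THP-1 (309 to 70 counts, -1.92, interval -2.31 to -1.54). Its exons share 397 bp with BDH2 on the same strand. The other falls were of genes with few counts, SLC9A4 (20 to 9) and SLC9A7 (18 to 7) in K562 and SLC9B1 (25 to 1) and SLC9C2 (25 to 5) in THP-1.

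Among kinases that set the activity of the cation-chloride cotransporters, and their adaptors, 2 of 9 genes rose and 1 fell in K562, and in THP-1 1 rose and 1 fell of 9, against 23.5% and 22.1% of all genes past 2-fold. WNK4, which encodes a kinase of this pathway, rose in K562 from 943 to 3223 counts (log2 fold change 1.75, interval 1.64 to 1.85) and had 76 and 68 counts in THP-1. WNK2 fell in THP-1 from 60 to 13 counts, and KLHL3, whose product marks WNK kinases for degradation, fell in K562 from 117 to 39. Exons of WNK4 share 816 bp with COA3 on the opposite strand. CAB39L, which encodes the scaffold MO25 beta, rose in K562 (18 to 152 counts, 3.05, interval 2.34 to 3.84) and in THP-1 (308 to 817 counts, 1.63, interval 1.44 to 1.82).

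Of the calcium release and store-operated entry genes, 1 of 14 rose and 3 fell in K562, beside 10.5% higher and 13.0% lower over all genes, and their median was -0.61 on the log2 scale. In THP-1 1 of 13 rose and 2 fell, beside 9.61% and 12.5%, with a median of -0.02. ORAI3, which encodes a pore subunit of store-operated entry, fell in K562 from 1005 to 253 counts (-2.02, interval -2.22 to -1.82), and 1397 of the 2643 bp of its exons are shared with another annotated transcript on the same strand. ITPR1, the gene of an inositol trisphosphate receptor that releases calcium from the endoplasmic reticulum, fell in K562 from 1846 to 663 counts (-1.50, interval -1.63 to -1.38), in the library pair where ATP2A3 also fell. ITPR2, of the same receptor family, went from 1053 to 667 counts in K562 (-0.69, interval -0.83 to -0.54) and rose in THP-1 from 761 to 1495 (1.20, interval 1.07 to 1.33). TPCN1, a gene of endolysosomal cation channels, rose in K562 from 767 to 1644 counts, and TPCN2 fell in THP-1 from 553 to 230. RYR1, which encodes a ryanodine receptor, fell in K562 (131 to 28 counts) and in THP-1 (145 to 37). The sensor genes STIM1 and STIM2 did not pass 2-fold in either line, with log2 fold changes from 0.14 to 0.88.

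Mitochondrial calcium uniporter genes passed 2-fold in 1 of 10 cases in K562 and 0 of 10 in THP-1, against 23.5% and 22.1% of all genes. The K562 gene was MCUB, which encodes the inhibitory pore subunit and fell in K562 (549 to 176 counts, log2 fold change -1.67, interval -1.92 to -1.42), with 53 and 47 counts in THP-1. Of calcium buffers and chaperones of the endoplasmic reticulum, 2 of 11 rose and 1 fell in K562, and 1 of 12 rose and 2 fell in THP-1, or 3 of 11 and 3 of 12 past 2-fold beside the same 23.5% and 22.1% of all genes. S100A4, a calcium-binding protein gene, rose in K562 (14 to 151 counts) and in THP-1 (3572 to 7979). CALB2, the calretinin gene, was the other K562 rise (10 to 123 counts) and CALB1, the calbindin gene, the K562 fall (114 to 50), while S100A8 (25 to 4) and S100A9 (96 to 3) fell in THP-1.

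Among potassium and volume-regulated channel genes, 1 of 12 rose and 1 fell in K562, and 3 of 15 fell in THP-1, counts that lie below the 23.5% and 22.1% of all genes past 2-fold. KCNN4, the gene of the calcium-activated potassium channel that is known in red cells as the Gardos channel, rose in K562 from 185 to 746 counts (log2 fold change 1.98, interval 1.75 to 2.23) and went from 418 to 256 in THP-1 (-0.48, interval -0.71 to -0.26). LRRC8D, a subunit gene of the volume-regulated anion channel, fell in K562 from 2543 to 811 counts (-1.67, interval -1.79 to -1.56), and 329 bp of its exons are shared with another gene on the same strand. KCNA3, the gene of the potassium channel Kv1.3, fell in THP-1 from 874 to 214 counts (-1.81, interval -2.03 to -1.59), and KCNQ1 from 729 to 252 (-1.31, interval -1.52 to -1.10). LRRC8E was the other THP-1 fall (14 to 4 counts), and 3218 of the 4329 bp of its exons are shared with an antisense gene. The sodium pump subunits, through which cardiac glycosides act, counted 2 rises and 1 fall among 6 genes in K562 and 3 rises and 1 fall among 6 in THP-1, with medians of 0.57 and 0.73. These are 3 of 6 and 4 of 6 genes past 2-fold, beside 23.5% and 22.1% of all genes. ATP1B3, a beta subunit gene, rose in K562 (1522 to 5424 counts, log2 fold change 1.81) and in THP-1 (1925 to 3486 counts, 1.08). ATP1B2 rose in K562 (57 to 457 counts) with 0 in both THP-1 libraries. ATP1B1 (206 to 615 counts) and FXYD5 (763 to 1797) rose in THP-1.

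**Figure D4:**
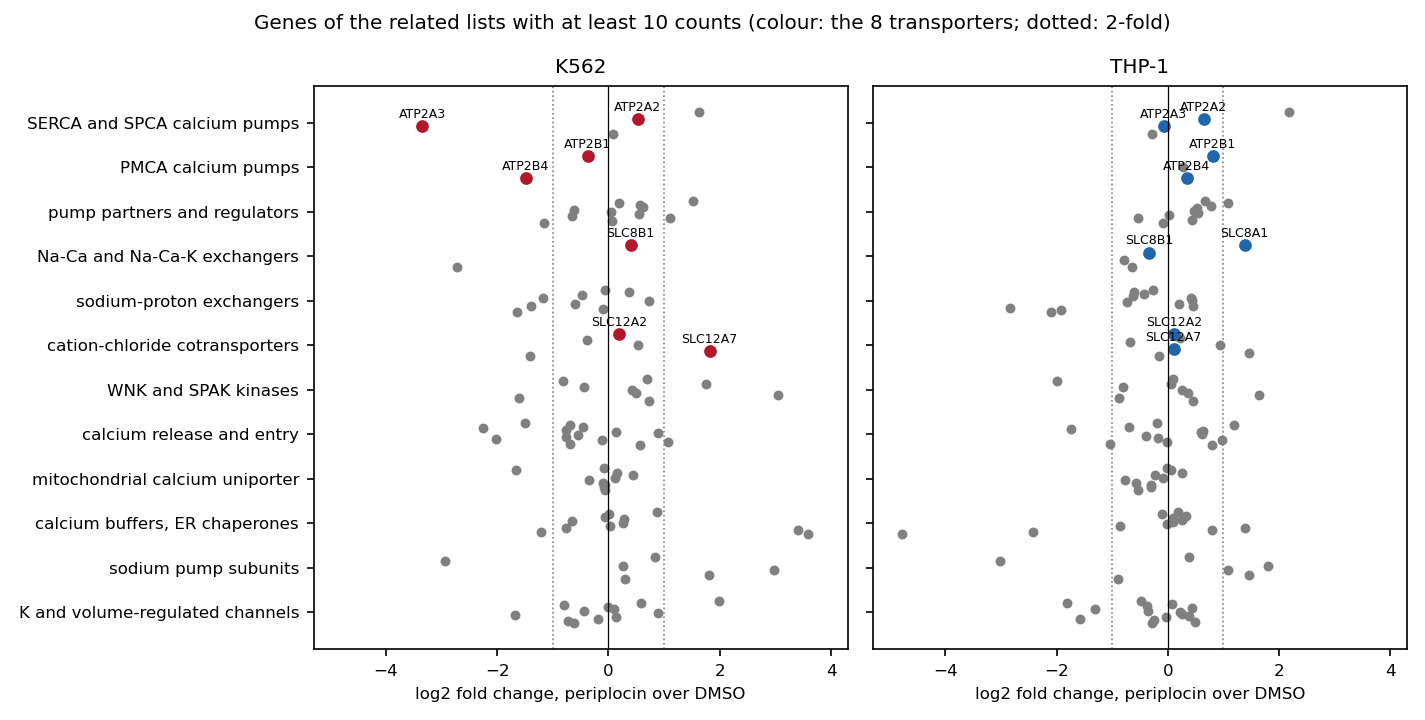
Log2 fold change, periplocin over DMSO, of each gene with at least 10 counts in either library of the pair, by list, in K562 and in THP-1, with the transporters in colour and named and dotted lines at 2-fold. A library at 3 counts or fewer was set to 3. ATP2A3 at -3.35 was the lowest point of the K562 panel, whereas in THP-1 the same gene stood at -0.07.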

How the data were processed

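K562 and THP-1 cells in DMSO or periplocin gave 4 poly-A libraries. The authors deposited expected counts by gene for each library, without normalization or pooling, of which 87.4% to 88.3% per library are exactly whole, with no tolerance and genes at 0 included. The submitters' processing notes name HISAT2, StringTie 1.3.1 and hg38, without roles, and the counting program and annotation are not given in the sources used here. The library kit does not mark strand. Identifiers were paired with symbols for 20310 of 20348 genes, and positions and exon lengths came from GENCODE release 29 on GRCh38, which holds 20118 of them. The table had 0 unused columns.

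Expected counts were rounded. TMM factors over the 4 libraries (edgeR 4.0.16, R 4.3.3) scaled the totals. Ratios of 2 libraries carry exact conditional (Clopper-Pearson) intervals at 95%, and a difference between ratios carries a normal-approximation one. Both cover counting error only, which is the least error that estimated counts can have. Genes with at least 10 counts in either library of a pair were compared, a library at 3 counts or fewer was set to 3 for the fold changes of the lists and patterns, no fold is given where both libraries are there, the ratio of SLC8A1 between the untreated lines is of the counts as they stand, and 2-fold was the threshold. With 1 library per condition no p-value is given for a pair. The joint fit used edgeR's quasi-likelihood test with Benjamini-Hochberg adjustment over genes that reached 10 counts in 2 or more libraries, and DESeq2 1.42.0 was the alternative, without an adjusted p for 2371 genes. TPM was computed here from the counts. Python 3.11.15 was used for intervals and figures, and the steps were tested on simulated data.

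The transporters and the 14 gene lists were chosen with earlier results of these data known, so they are not independent of them. Apart from the transporters, markers and genes of similar pattern, the named genes are at most 5 per list and line, past 2-fold and with a mean of at least 5 CPM. Genes named with values below 2-fold or with few counts, such as ATP2B2, ATP2B3, ATP2C1, SLC8A2, SLC8A3, SLC12A4, STIM1, STIM2, PLN and SLN, or past 2-fold with a lower mean, such as SLC9A4, SLC9A7, SLC9B1, SLC9C2, WNK2, KLHL3, RYR1, CALB1, CALB2, S100A8, S100A9 and LRRC8E, were added after their values were seen to complete a family or a count.

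Alternatives were other scalings, filters, folds and a pseudocount of 1 CPM. Some genes of the lists and markers are counted but not reported here by name. The other assays of the study were not analysed here.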

Additional observations from a re-analysis of the deposited data

Results flagged for a closer look

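Some genes moved in opposite directions in the lines, each beyond its counting interval. With 1 library per condition this difference was not tested. The value given is the THP-1 log2 fold change minus the K562 one. ATP2B4 differed by 1.82 (counting interval 1.68 to 1.96), from -1.48 in K562 and 0.34 in THP-1. ATP2B1 differed by 1.18 (interval 1.05 to 1.32), from -0.37 and 0.81. SLC8B1 differed by -0.74 (interval -0.98 to -0.49), from 0.40 and -0.34. Outside the transporters, ITPR2 differed by 1.88 (interval 1.70 to 2.07) and KCNN4 by -2.47 (interval -2.79 to -2.15).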

How the results depend on the processing

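All 75 recomputed fold changes of the transporters, under 4 other scalings and a pseudocount of 1 CPM, stayed within their counting intervals, and 0 changed sign. Scaling moved them by at most 0.04 on the log2 scale. Transporters past 2-fold numbered 3 in K562 and 1 in THP-1 under each scaling and filter tried. At 4-fold they numbered 1 in K562 and 0 in THP-1, and at 1.5-fold 3 in each line. An alternative chosen after seeing the data widened the half-interval to 1.269 on the log2 scale, from the coefficient of variation of the joint fit (0.317). The 3 and 1 transporters past 2-fold kept intervals clear of no change. This does not ask that the interval lie past 2-fold. The coefficient reflects how far the lines' responses differ, with 1 residual degree of freedom, and is not a spread between replicates.

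Over all genes the count past 2-fold, 2993 in K562 and 2955 in THP-1, became 1638 and 1516 at a mean of at least 5 CPM, 5570 and 5548 at 1.5-fold, and 821 and 754 at 4-fold. With a pseudocount of 1 CPM it became 2040 in K562 and 1869 in THP-1. The joint fit called 1 gene, AQP1, without a filter and 131 with DESeq2, against 0. With the longest coding transcript as length, 12 of 32 ranks of the transporters by TPM changed.

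The joint fit pairs the treated and untreated libraries of each line, with 1 residual degree of freedom. There were no replicate numbers to use as a block, and leaving out a replicate was not run, since each condition has 1 library. SLC8A1 was too low to compare in K562, at 1 and 3 counts. The K562 library totals, 16381149 and 16560522 counts, were not far below the 17721490 of THP-1 periplocin, where SLC8A1 had 642.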
